A study of Mus musculus with 24 samples.

Results

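Mouse acute myeloid leukaemia cells sorted as low for Mac-1 and positive for Kit were compared by their Sca-1 gate: the group MacLowKit+Sca1+ with 4 libraries against the group MacLowKit+Sca1- with 5, together 9 of the 24 RNA-seq libraries of the series. The libraries were taken by the ending of the sample name (_Kit+Sca1+ or _Kit+Sca1-), and the 2 groups are called Kit+Sca1+ and Kit+Sca1- below. Both groups, like the other sorted groups MacHigh and MacLowKit-Sca1- and the unsorted cells (5 libraries each), came from spleens of NRASG12V/Mll-AF9 leukaemia on an F1 background of FVB/n and C57/BL/6J. No library is labelled as normal cells, and whether every sorted cell carried the oncogenes was not tested. NRASG12V is an NRAS GTPase locked in its active form, and Mll-AF9 is a fusion of the histone methyltransferase MLL with AF9. The promoter that drives each oncogene, the age of the mice and any pooling of mice are not given in the sources used here. The series title speaks of a self-renewal signature in a population enriched for leukaemia stem cells, so the comparison asks which genes go with Sca-1 among Mac-low, Kit-positive cells.

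Sca-1, the product of Ly6a, is a lipid-anchored surface protein that marks mouse blood stem cells, and it is induced by interferons in many other blood cells. Kit is the receptor for stem cell factor on progenitors and mast cells. Mac-1 is the integrin formed by the products of Itgam and Itgb2 on maturing myeloid cells and on macrophages. The spleen also holds macrophages of the red pulp, which clear old red cells and recycle their iron, and conventional dendritic cells, which depend on the receptor Flt3 and present antigen on MHC molecules.

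Values are FPKM, fragments scaled to the length of a gene and to the fragments of its library, and differences are Kit+Sca1+ minus Kit+Sca1- of log2(FPKM + 1), which understates the change of low genes. Gene coordinates are those of the RefSeq annotation of GRCm38.p6. Sample names start with a prefix (11, 12, 26, L, N or R) that the labels do not explain. In a series of values, the 4 libraries of Kit+Sca1+ and the 5 of Kit+Sca1- follow the order of their replicate numbers. The adjusted p comes from limma's moderated test with Benjamini-Hochberg adjustment over the 11564 rows tested, and a gene rose or fell where its adjusted p was under 0.05. The labels do not say whether the replicates came from separate animals. A p-value here is set only against the spread of libraries within the 5 groups, which may be technical. That spread was estimated from all 24 libraries. With only the 9 libraries compared, 5426 rows rose or fell instead of 6369.

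Summed over all rows, the FPKM of a library came to 551900 ± 62800 in Kit+Sca1+ (SD, n = 4) and 473600 ± 41800 in Kit+Sca1- (SD, n = 5). Rows at 1 FPKM or more numbered 10959 to 11124 in the first group and 10177 to 10524 in the second. The absolute depth is unknown, and the depth relative to replicate 1 of Kit+Sca1+, read from ratios of low values, ran from 0.674 to 1 in Kit+Sca1+ and from 0.719 to 1.52 in Kit+Sca1-. Correlations of log2 values were 0.943 to 0.961 within Kit+Sca1+, 0.942 to 0.969 within Kit+Sca1- and 0.804 to 0.889 between the groups. In 35 rows the value was 0.001 FPKM, the floor of the table, in all 5 Kit+Sca1- libraries while another group had 5 FPKM or more in every library, and they are treated as missing; Kit+Sca1+ had 0 such rows. 29 of the 35 lie on chromosome 10 between 79704358 and 80320548, and among them are genes that every cell uses, such as Rps15 and Gpx4. For that reason no difference is given for Mpo, Elane, Prtn3, S100a8, S100a9 or Ngp.

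The gene of the gated marker followed the gate. Ly6a (chr15:74994877-74998031) was at 7.20, 9.75, 8.07 and 5.64 FPKM in Kit+Sca1+ and 1.09, 1.29, 0.254, 1.29 and 0.660 in Kit+Sca1-. Every Kit+Sca1+ value lay above every Kit+Sca1- value (log2 difference 2.19 ± 0.22 (SE), adjusted p = 2.41e-08; exact two-sided permutation p = 0.0159, the smallest of 126 arrangements). With a pseudocount of 0.1 or 5 in place of 1 the log2 difference was 3.07 or 1.09. The gate itself selects for this difference, so it checks the labels and is not a finding. Kit (chr5:75574987-75656722), on which both groups were gated alike, was at 26.8, 32.0, 43.6 and 34.8 FPKM in Kit+Sca1+ and 54.1, 38.7, 36.8, 37.6 and 31.7 in Kit+Sca1-. The ranges overlapped (log2 difference -0.21 ± 0.15 (SE), adjusted p = 0.242; exact two-sided permutation p = 0.333). With each library rescaled to the same FPKM sum, Kit was lower in Kit+Sca1+ (log2 difference -0.42, adjusted p = 0.0206).

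Itgam (chr7:128062640-128118491), the gene of the Mac-1 alpha chain, differed although both groups were gated as Mac-low. It was at 39.2, 52.6, 98.0 and 58.1 FPKM in Kit+Sca1+ and 199, 396, 137, 182 and 422 in Kit+Sca1-. The 2 groups did not overlap (log2 difference -2.03 ± 0.29 (SE), adjusted p = 3.66e-06; exact two-sided permutation p = 0.0159). Means were 62.0 ± 25.3 FPKM in Kit+Sca1+, 267 ± 132 in Kit+Sca1- and 633 ± 44.7 in MacHigh (SD, n = 4, 5 and 5). The plot of the 3 marker genes shows each library.

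**Figure D1:**
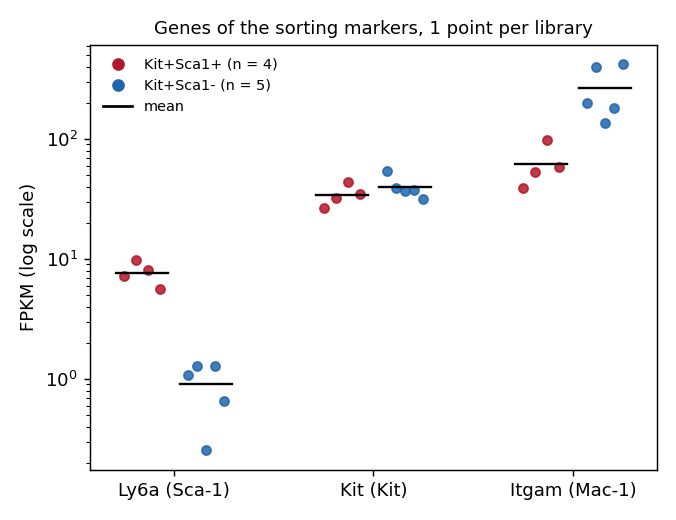
FPKM (log scale) of Ly6a, Kit and Itgam, 1 point per library in Kit+Sca1+ (red, n = 4) and Kit+Sca1- (blue, n = 5), with a bar at the mean. Ly6a is higher and Itgam lower in every Kit+Sca1+ library than in any Kit+Sca1- library, and the points of Kit overlap.

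Across the table the difference was broad. 6369 of 11564 rows (55.1%) were called, 3070 higher (26.5%) and 3299 lower (28.5%) in Kit+Sca1+. Larger changes went mostly 1 way: 1344 rows (11.6%) rose and 646 (5.59%) fell by a log2 difference of 1 or more. In 2281 rows (19.7%) every Kit+Sca1+ value lay above every Kit+Sca1- value, and in 2251 (19.5%) every value lay below. Counts of list members below, called or without overlap, stand against these shares of all rows, also where they are not repeated. The median log2 difference over all rows was -0.0206, with quartiles at -0.336 and 0.368. Rescaling to the same FPKM sum moved that median by -0.19, and 31.8% of calls were then higher, against 48.2% with the values as deposited; quantile normalization gave 39.2%.

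The 12 highest differences were genes of tissue macrophages and dendritic cells. C1qa, C1qb and C1qc, which encode the chains of complement C1q and lie side by side on chromosome 4, had log2 differences of 6.44, 6.33 and 6.31. C1qa (chr4:136895916-136898844) was at 206, 329.5, 109.9 and 184 FPKM in Kit+Sca1+ and 1.33, 0.814, 0.542, 2.47 and 1.43 in Kit+Sca1- (log2 difference 6.44 ± 0.29 (SE), adjusted p = 3.71e-13). Fcna, which encodes ficolin A, a plasma lectin made by macrophages, was at 279.9, 406, 112 and 249 FPKM in Kit+Sca1+ and 1.99, 0.936, 1.08, 4.01 and 1.92 in Kit+Sca1- (log2 difference 6.41, adjusted p = 8.59e-13). In both, the lowest Kit+Sca1+ library was well above the highest Kit+Sca1- library. Vcam1 (an adhesion molecule of stroma and red pulp macrophages), Cd5l (a secreted macrophage protein), Apoe (a lipid carrier), Spic (the transcription factor of red pulp macrophages), Dnase1l3 (a secreted nuclease), Itgad (an integrin alpha chain of splenic macrophages), Axl (a receptor for dying cells) and Itgae (the CD103 chain of dendritic and T cells) followed, at 5.81 to 4.58. Among these 12 genes Apoe alone had its highest mean of the 4 sorted groups in MacHigh (438 FPKM); the other 11 had it in Kit+Sca1+.

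The 12 lowest differences were mostly genes of neutrophil granules and of maturing neutrophils. Chi3l4, a chitinase-like gene, was at 0.145, 0.135, 0.602 and 0.323 FPKM in Kit+Sca1+ and 90.5, 13.1, 5.33, 82.4 and 68.5 in Kit+Sca1- (log2 difference -4.74 ± 0.72 (SE), adjusted p = 7.46e-06); reads could be shared with its near copy Chi3l3, one of the missing rows, so this value is uncertain. Ltf (lactoferrin, an iron-binding granule protein) was at 115, 282, 689.5 and 107 FPKM in Kit+Sca1+ and 1645, 4563, 701, 1642 and 6181 in Kit+Sca1- (log2 difference -3.32 ± 0.58 (SE), adjusted p = 4.24e-05). The highest Kit+Sca1+ library and the lowest Kit+Sca1- library of Ltf were close, at 689.5 and 701 FPKM. Lcn2 (a protein that binds bacterial iron carriers) was at 281, 480, 804 and 219 FPKM in Kit+Sca1+ and 3275, 4716, 1062, 3557 and 7547 in Kit+Sca1- (log2 difference -3.10, adjusted p = 4.77e-06). Ifitm6, Orm1, Cd177, Camp, Itgb2l, Olfm4, Chi3l1, Ankrd22 and Cybb (the catalytic chain of the phagocyte oxidase) had log2 differences of -2.97 to -2.48. Replicate 3 of Kit+Sca1- was the lowest of its group for Ltf, Lcn2 and Camp, and replicate 5 the highest.

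**Figure D2:**
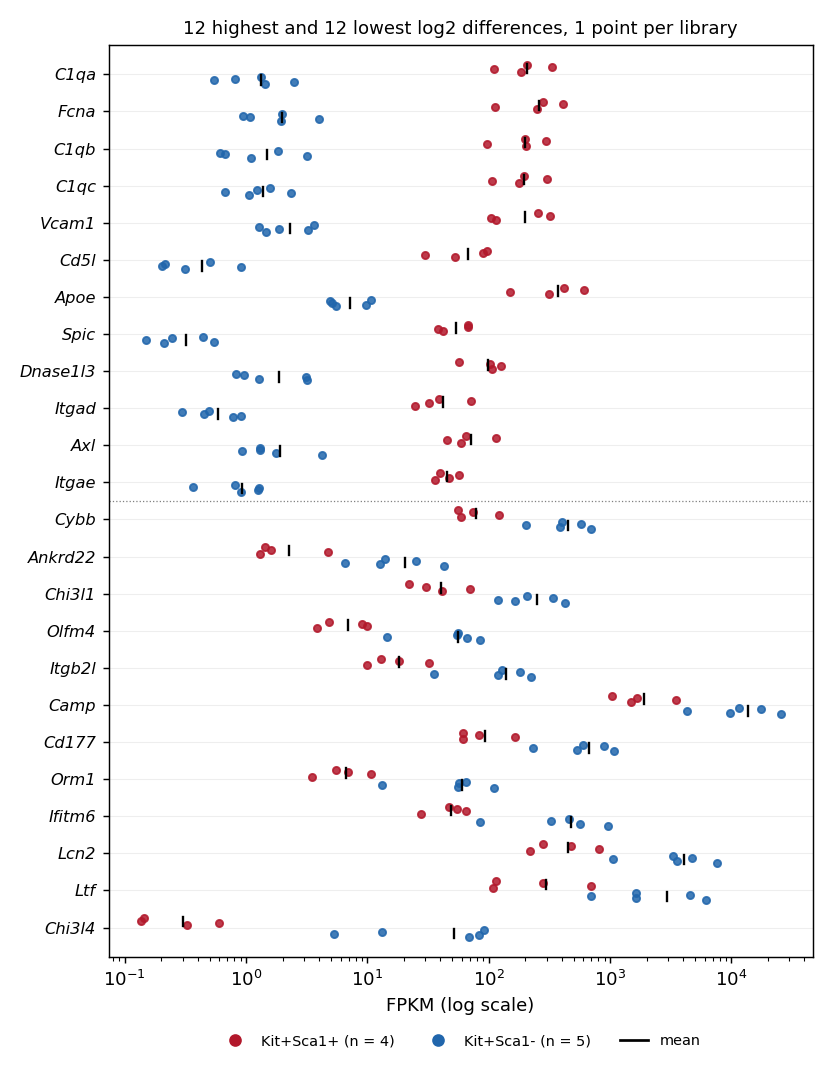
FPKM (log scale) of the 12 genes with the highest and the 12 with the lowest log2 differences among those called without overlap whose higher group averaged at least 5 FPKM, 1 point per library, Kit+Sca1+ in red (n = 4) and Kit+Sca1- in blue (n = 5), with a tick at the mean. C1qa is at 109.9 to 329.5 against 0.542 to 2.47 FPKM, and Camp at 1039 to 3474 against 4279 to 25380 FPKM.

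**Figure D3:**
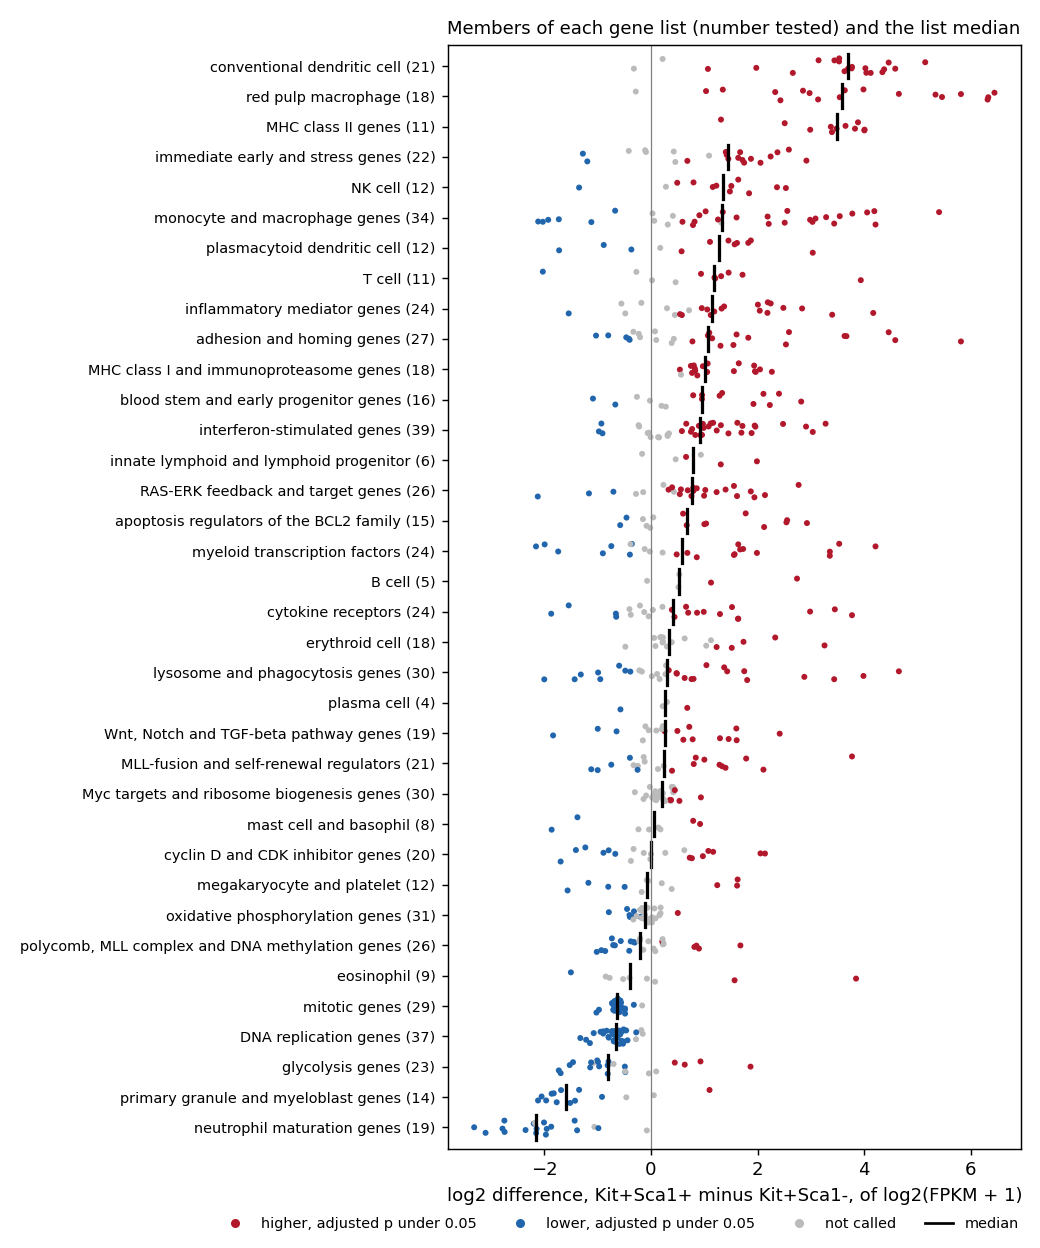
Log2 difference (Kit+Sca1+ minus Kit+Sca1-, of log2(FPKM + 1)) of each tested member of the gene lists with at least 4 tested members, coloured by its call, with a bar at the list median. The lists of conventional dendritic cells, red pulp macrophages and MHC class II genes have medians of 3.70, 3.59 and 3.48, and neutrophil maturation genes -2.15.

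Genes listed for red pulp macrophages rose together. Of the 18 genes listed, all tested, 17 rose, 0 fell and 1 did not pass the test, against 26.5% of all rows higher. The list includes Hba-a1, an alpha-globin gene that is also in the erythroid list and rose with overlap. In 16 of the 17 the groups did not overlap, against 19.7% of all rows. The list median was 3.59, and 3.37 to 3.79 with 1 library left out at a time. The members summed to 1178 to 2669 FPKM in Kit+Sca1+ and 214 to 332 in Kit+Sca1-. Spic (chr10:88675269-88683023) was at 67.6, 67.5, 37.9 and 41.6 FPKM in Kit+Sca1+ and 0.440, 0.245, 0.149, 0.539 and 0.210 in Kit+Sca1- (log2 difference 5.34 ± 0.21 (SE), adjusted p = 8.40e-14). Cd163, the haemoglobin scavenger receptor, was at 21.3, 29.5, 9.16 and 9.91 FPKM in Kit+Sca1+ and 0.633, 0.234, 0.296, 0.481 and 0.512 in Kit+Sca1- (log2 difference 3.54, adjusted p = 3.37e-10). In both genes replicates 1 and 2 of Kit+Sca1+ were above replicates 3 and 4, and all 4 were far above Kit+Sca1-. Hmox1, which breaks down haem, was at 236, 299, 152 and 216 FPKM in Kit+Sca1+ and 15.01, 17.2, 10.6, 20.0 and 23.9 in Kit+Sca1- (log2 difference 3.63, adjusted p = 7.02e-11). Slc40a1, the iron exporter ferroportin, was at 114 to 205 against 52.6 to 87.3 FPKM and rose less (log2 difference 1.03, adjusted p = 0.00125). Mertk and Axl, receptors that bind dying cells, rose by 3.98 and 4.65. Sirpa, an inhibitory receptor of macrophages and dendritic cells, was the member that did not pass (78.7 to 136 against 94.6 to 149.9 FPKM, log2 difference -0.29, adjusted p = 0.185); with sample name prefixes as a block its log2 difference was -0.40 (adjusted p = 0.0402). In bulk RNA, fewer cells of a type and less RNA per cell cannot be told apart.

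Most genes of the monocyte and macrophage list rose. Of the 34 genes listed, all tested, 23 rose, 6 fell and 5 did not pass, with a median of 1.33. Of all rows 26.5% were higher and 28.5% lower, so the share that fell was below that of all rows. Mpeg1, a pore-forming protein of macrophages, was at 652, 1085, 1080 and 934 FPKM in Kit+Sca1+ and 91.1, 94.9, 115, 88.2 and 198 in Kit+Sca1- (log2 difference 3.03 ± 0.20 (SE), adjusted p = 5.52e-11), with no overlap between the groups. Mrc1 (the mannose receptor) and Csf1r (the receptor for the macrophage growth factor) rose by 4.19 and 2.98. Among the members that fell were Itgam, Ly6c2 and Lyz2, genes of inflammatory monocytes and maturing myeloid cells. Ly6c2 was at 217, 201, 489 and 641 FPKM in Kit+Sca1+ and 1032, 1380, 1408, 802 and 1174 in Kit+Sca1- (log2 difference -1.73, adjusted p = 1.09e-05), with no overlap. Lyz2 (lysozyme) was at 338 to 1224 against 1307 to 7396 FPKM (log2 difference -1.93, adjusted p = 0.00264); its row was listed at 0.001 in all MacHigh libraries. The red pulp macrophage sums above moved with these genes, and their part in the result was not tested.

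Genes of conventional dendritic cells rose, among them those of the cross-presenting type. Of the 21 genes tested of 22 listed, 19 rose, 0 fell and 2 did not pass, against 26.5% of all rows higher. All 19 were without overlap, against 19.7% of all rows. The list median was 3.70 (3.47 to 3.99 with 1 library left out). The members summed to 2375 to 4508 FPKM in Kit+Sca1+ and 559 to 1128 in Kit+Sca1-. Xcr1, a chemokine receptor of cross-presenting dendritic cells, was at 53.6, 104, 156 and 104 FPKM in Kit+Sca1+ and 1.70, 2.18, 5.05, 3.38 and 9.74 in Kit+Sca1- (log2 difference 4.37 ± 0.35 (SE), adjusted p = 7.21e-10). Clec9a, a receptor for dead cells on the same type, was at 46.1, 122, 165 and 154 FPKM in Kit+Sca1+ and 2.38, 3.48, 6.61, 4.85 and 20.7 in Kit+Sca1- (log2 difference 4.02 ± 0.47 (SE), adjusted p = 1.83e-07). Zbtb46, a transcription factor of the conventional lineage, was at 25.6, 44.1, 59.7 and 51.0 FPKM in Kit+Sca1+ and 1.94, 1.79, 2.82, 2.28 and 9.73 in Kit+Sca1- (log2 difference 3.44, adjusted p = 1.19e-08). In each of these 3 genes replicate 1 was the lowest of Kit+Sca1+ and replicate 5 the highest of Kit+Sca1-, and the groups stayed apart. Itgax (CD11c), Batf3 (needed for cross-presenting cells), Cd207 (langerin), Cadm1, Naaa and Ppt1 rose by 3.63, 3.53, 4.34, 4.46, 4.04 and 3.14. Irf4, a factor of the other conventional type, was at 0.733 to 0.974 against 0.235 to 0.881 FPKM and did not pass (log2 difference 0.22, adjusted p = 0.394). Cd24a was at 250.1 to 361 against 339 to 538 FPKM (log2 difference -0.32, adjusted p = 0.0841), and it was lower at adjusted p = 0.00133 once the FPKM sums were made equal.

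Flt3, the receptor tyrosine kinase of early progenitors and of dendritic cells, belongs to 3 of the lists. It was at 131, 134, 128 and 113 FPKM in Kit+Sca1+ and 10.3, 3.10, 8.15, 8.81 and 16.1 in Kit+Sca1-. The 4 Kit+Sca1+ values were close together and all above the highest Kit+Sca1- value (log2 difference 3.77 ± 0.39 (SE), adjusted p = 3.54e-08). Its mean was 22.2 FPKM in MacHigh and 12.3 in MacLowKit-Sca1-. Genes that share the receptor's cell types, such as those of dendritic cells above, moved with it, and their part in the result was not tested.

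Of the 24 myeloid transcription factors listed, all tested, 13 rose, 7 fell and 4 did not pass. Of all rows 26.5% were higher and 28.5% lower, so the share that fell was near that of all rows. The list median was 0.58 (0.34 with quantile normalization). Among those that rose are factors of dendritic cells and macrophages. Irf8, which directs dendritic cell and monocyte fates, was at 443, 664, 753 and 734 FPKM in Kit+Sca1+ and 40.5, 34.2, 82.0, 45.9 and 163 in Kit+Sca1- (log2 difference 3.35 ± 0.30 (SE), adjusted p = 4.39e-09). Batf3 was at 50.8, 84.7, 87.2 and 95.5 FPKM in Kit+Sca1+ and 3.36, 2.91, 6.20, 4.22 and 21.5 in Kit+Sca1- (log2 difference 3.53, adjusted p = 2.20e-07), and Maf, a macrophage factor, at 7.59 to 20.4 against 0.153 to 0.688 FPKM (log2 difference 3.35, adjusted p = 1.04e-08). Among those that fell are factors of the granulocyte lineage. Cebpe, which drives the genes of secondary granules, was at 42.8, 54.3, 129.8 and 98.9 FPKM in Kit+Sca1+ and 319, 460.2, 249, 255 and 440.5 in Kit+Sca1- (log2 difference -2.16 ± 0.37 (SE), adjusted p = 3.85e-05). Gfi1, a repressor needed for neutrophils, was at 29.4, 25.4, 53.6 and 76.1 FPKM in Kit+Sca1+ and 154, 141, 163, 138 and 118 in Kit+Sca1- (log2 difference -1.74 ± 0.27 (SE), adjusted p = 1.16e-05). Neither of the last 2 genes overlapped between the groups, although replicates 3 and 4 of Kit+Sca1+ were nearer to Kit+Sca1- than replicates 1 and 2. Cebpd and Cebpa, the related factors of granulocyte and myeloid progenitors, fell by 1.99 and 0.74 on the log2 scale.

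All 11 listed MHC class II genes passed the filter and rose, against 26.5% of all rows higher. Each was without overlap, against 19.7% of all rows, and the list median was 3.48. These genes encode the chains that present peptides to CD4 T cells, the loading factors and their coactivator Ciita. Upstream of most of them lie an X box and a Y box, bound in the textbook view by the RFX and NF-Y factors, on which Ciita acts. Windows of 250 bases before to 50 after the start site were read from RefSeq on GRCm38.p6 for 8 of the 11 genes, 9 windows in all. The Y box letters ATTGG, on either strand, were in 8 of the 9 windows (88.9%) and in 37.4% of all 32851 windows. The X box core AACNNATG was in 5 of 9 (55.6%) against 8.86%; these letters and those of the other motifs searched were chosen after values were seen, and a match is a description only. Binding of the factors named above was not tested. The 5 windows with both are shown by a stretch around the pair, 5′ to 3′ on the plus strand, with both motifs in capitals. They lie at chr17:34153085-34153139 (H2-DMb1), chr17:34145114-34145168 (H2-DMb2), chr17:34305763-34305817 (H2-Eb1), chr17:34238803-34238857 (H2-Ob), chr17:34325530-34325584 (H2-Eb2).
H2-DMb1: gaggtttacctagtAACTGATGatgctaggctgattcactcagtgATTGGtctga
H2-DMb2: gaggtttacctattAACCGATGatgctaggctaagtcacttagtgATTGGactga
H2-Eb1: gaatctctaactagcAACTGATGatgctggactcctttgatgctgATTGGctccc
H2-Ob: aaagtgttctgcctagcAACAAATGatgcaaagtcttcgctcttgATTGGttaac
H2-Eb2: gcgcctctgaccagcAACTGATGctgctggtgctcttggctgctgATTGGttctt
In these 5 sequences the Y box ends 52 to 95 bases before the annotated start site.

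H2-Eb1, whose X and Y boxes stand in the third sequence, was at 817, 1384, 1549 and 1499 FPKM in Kit+Sca1+ and 61.0, 35.5, 88.6, 66.5 and 228 in Kit+Sca1- (log2 difference 4.00 ± 0.40 (SE), adjusted p = 2.03e-08). H2-DMb1, a chain of the peptide loading factor, was at 121, 166, 193 and 191 FPKM in Kit+Sca1+ and 17.1, 12.7, 18.7, 20.0 and 38.5 in Kit+Sca1- (log2 difference 2.99 ± 0.24 (SE), adjusted p = 6.59e-10). Ciita was at 66.1, 111, 165 and 108 FPKM in Kit+Sca1+ and 6.45, 4.54, 7.72, 5.73 and 18.5 in Kit+Sca1- (log2 difference 3.65 ± 0.34 (SE), adjusted p = 7.01e-09). In all 3, replicate 1 was the lowest library of Kit+Sca1+ and replicate 5 the highest of Kit+Sca1-. Cd74, the invariant chain, was at 6289, 10350, 11450 and 11960 FPKM in Kit+Sca1+ and 542, 323, 754, 532 and 2136 in Kit+Sca1- (log2 difference 3.83, adjusted p = 7.10e-08), and H2-Aa and H2-Ab1 rose by 3.88 and 4.00. H2-DMa and H2-DMb2 rose by 3.48 and 2.51. The 11 genes summed to 14230 to 26520 FPKM in Kit+Sca1+ and 702 to 4516 in Kit+Sca1-. Markers of conventional dendritic cells, which carry much MHC class II, moved with them, with the sums given above, and their part in the result was not tested.

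MHC class I genes and the genes that make and carry their peptides rose by less. Of the 18 genes tested of 19 listed, 17 rose, 0 fell and 1 did not pass, with a median of 1.01. Nlrc5, the class I counterpart of Ciita, was at 8.35, 14.5, 13.4 and 9.93 FPKM in Kit+Sca1+ and 2.40, 1.805, 1.81, 2.20 and 1.77 in Kit+Sca1- (log2 difference 2.04 ± 0.14 (SE), adjusted p = 8.54e-11). Tap1, which pumps peptides into the endoplasmic reticulum, was at 99.0, 126, 139.9 and 135 FPKM in Kit+Sca1+ and 33.0, 28.4, 28.2, 24.4 and 44.2 in Kit+Sca1- (log2 difference 1.96, adjusted p = 1.16e-10). The groups did not overlap for either gene. The class Ib gene H2-M3 and the immunoproteasome subunit Psmb8 rose by 2.27 and 1.65. H2-K1, a classical heavy chain, was at 429.7 to 539 against 212 to 282 FPKM (log2 difference 1.05, adjusted p = 8.01e-09), and its partner B2m at 1656 to 1816 against 872 to 1320 FPKM (log2 difference 0.75, adjusted p = 3.23e-05).

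Interferon-stimulated genes rose in part. Of the 39 genes tested of 42 listed, 26 rose, 3 fell and 10 did not pass, with a median of 0.93; 5 fell with prefixes as a block. The dendritic cell and red pulp macrophage markers described above moved with them, and their part in the result was not tested. Many such genes carry the element bound by the factors that interferon activates. The letters GAAA, any 2 bases and GAAA again, on either strand, were in 21 of 37 windows of 30 of the listed genes (56.8%) and in 3.44% of all windows. Windows of Gbp2 (chr3:142620579-142620628, plus strand), Trim30a (chr7:104465205-104465254, minus strand) and Irgm1 (chr11:48871421-48871469, minus strand) are shown as members that rose, with each match in capitals, 5′ to 3′ on the strand of the gene (RefSeq, GRCm38.p6).
Gbp2: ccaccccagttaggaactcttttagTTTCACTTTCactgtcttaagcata
Trim30a: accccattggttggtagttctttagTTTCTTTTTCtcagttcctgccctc
Irgm1: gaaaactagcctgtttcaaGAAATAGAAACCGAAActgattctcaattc
The Irgm1 sequence holds overlapping matches. Gbp2, a guanylate-binding protein, was at 17.1, 21.3, 25.9 and 22.2 FPKM in Kit+Sca1+ and 1.11, 1.48, 1.41, 1.36 and 1.23 in Kit+Sca1- (log2 difference 3.27 ± 0.27 (SE), adjusted p = 1.21e-09). Irf7, a factor that amplifies the response, was at 40.3, 97.9, 85.8 and 65.9 FPKM in Kit+Sca1+ and 7.27, 6.53, 4.65, 6.78 and 15.4 in Kit+Sca1- (log2 difference 3.03 ± 0.27 (SE), adjusted p = 3.41e-09). Both groups of libraries stayed apart in these 2 genes. Mx1 and Ly6e rose by 2.91 and 1.89, and Trim30a and Irgm1 by 1.95 and 1.23. Ifit2, Oas2 and Ddx58, which act on or sense viral RNA, fell. Ifit2 was at 6.71, 7.47, 10.02 and 7.03 FPKM in Kit+Sca1+ and 17.4, 17.6, 12.9, 14.3 and 16.4 in Kit+Sca1- (log2 difference -0.93 ± 0.12 (SE), adjusted p = 7.26e-07), with no overlap. Oas2 and Ddx58 were at 1.57 to 3.11 against 1.90 to 7.92 FPKM and 3.22 to 4.53 against 5.16 to 9.96 FPKM and fell by 0.98 and 0.91 on the log2 scale.

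Regulators tied to MLL fusions and to self-renewal split. Of the 21 genes tested of 25 listed, 10 rose, 5 fell and 6 did not pass, against 26.5% of all rows higher and 28.5% lower. The list median was 0.24; with equal FPKM sums it was 0.035 (9 rose and 6 fell), with quantile normalization 0.15, and with replicate 1 of Kit+Sca1+ left out the median was 0.13. Apart from Flt3, the members that rose most clearly were Meis1, Sox4 and Mef2c. Meis1, a partner of the Hox proteins, was at 8.48, 6.18, 6.49 and 4.26 FPKM in Kit+Sca1+ and 2.26, 1.21, 1.82, 1.85 and 2.28 in Kit+Sca1- (log2 difference 1.33 ± 0.14 (SE), adjusted p = 6.80e-08). Sox4, a factor of immature blood cells, was at 24.4, 23.1, 11.3 and 8.10 FPKM in Kit+Sca1+ and 2.78, 1.86, 3.65, 2.71 and 2.98 in Kit+Sca1- (log2 difference 2.11 ± 0.24 (SE), adjusted p = 1.61e-07). Mef2c, a target of MLL fusions, was at 50.2, 39.0, 27.7 and 24.6 FPKM in Kit+Sca1+ and 10.9, 4.67, 9.81, 10.3 and 12.2 in Kit+Sca1- (log2 difference 1.78, adjusted p = 6.43e-07). None of the 3 overlapped, and for Sox4 and Mef2c replicates 1 and 2 of Kit+Sca1+ were above replicates 3 and 4. The Hoxa genes, which MLL fusions keep active, were low in both groups. Hoxa5 was at 9.06, 7.27, 3.43 and 5.46 FPKM in Kit+Sca1+ and 2.19, 0.664, 1.46, 2.10 and 2.25 in Kit+Sca1- (log2 difference 1.40 ± 0.24 (SE), adjusted p = 3.17e-05). Hoxa9 was at 8.94, 8.69, 2.65 and 6.21 FPKM in Kit+Sca1+ and 4.01, 1.17, 3.66, 4.17 and 3.24 in Kit+Sca1- and overlapped (log2 difference 0.80 ± 0.30 (SE), adjusted p = 0.0262). Its call ended without replicate 1 of Kit+Sca1+ (log2 difference 0.64, adjusted p = 0.0998), without replicate 2 of Kit+Sca1+ (0.65, 0.0992) and without replicate 2 of Kit+Sca1- (0.58, 0.0925). It also ended with equal FPKM sums (adjusted p = 0.0776) and with quantile normalization (0.188). Hoxa7 and Hoxa10 rose by 1.28 and 0.84, the latter at 0.839 to 2.61 against 0.1004 to 0.823 FPKM and without a call after quantile normalization (adjusted p = 0.158).

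Other members of that list fell. Myb, a factor that progenitors and MLL leukaemia depend on, was at 91.7, 66.3, 91.4 and 124 FPKM in Kit+Sca1+ and 186, 186, 235, 199 and 128 in Kit+Sca1- (log2 difference -0.9997 ± 0.19 (SE), adjusted p = 1.46e-04). The highest Kit+Sca1+ value of Myb, in replicate 4, and the lowest Kit+Sca1- value, in replicate 5, were close. Runx1 fell by 0.39 on the log2 scale, with overlap. Bcl2, the survival factor, rose (9.82 to 23.6 against 5.40 to 8.14 FPKM, log2 difference 1.001, adjusted p = 4.60e-05).

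Of 29 genes listed for blood stem and early progenitor cells, 13 did not pass the filter on low values, among them Slamf1, Tek, Hlf and Hoxb5, and 16 were tested. Of the tested, 10 rose, 2 fell and 4 did not pass, against 26.5% of all rows higher and 28.5% lower. With quantile normalization 4 fell. A gene seen in Kit+Sca1+ alone could pass the filter through that group, so these counts lean to higher values. Procr, the endothelial protein C receptor of stem cells, was at 7.13, 15.6, 16.2 and 15.4 FPKM in Kit+Sca1+ and 0.761, 0.552, 1.47, 0.529 and 1.95 in Kit+Sca1- (log2 difference 2.82 ± 0.27 (SE), adjusted p = 1.14e-08). Angpt1, a ligand made by stem and progenitor cells, was at 29.4, 18.6, 10.6 and 7.27 FPKM in Kit+Sca1+ and 2.17, 0.611, 2.99, 2.59 and 1.94 in Kit+Sca1- (log2 difference 2.40 ± 0.31 (SE), adjusted p = 7.81e-07). Procr was lowest in replicate 1 of Kit+Sca1+, while Angpt1 was highest there. Egfl7 and Cd27, an adhesion regulator and a receptor of stem and progenitor cells, were likewise higher in replicates 1 and 2 than in 3 and 4, at 74.9, 55.3, 27.4 and 25.8 and 22.96, 18.7, 5.94 and 6.00 FPKM in Kit+Sca1+ (log2 differences 1.92 and 2.23). Cd34 was at 43.3, 39.9, 21.2 and 19.6 FPKM in Kit+Sca1+ and 14.5, 6.65, 28.4, 14.2 and 16.0 in Kit+Sca1- and overlapped (log2 difference 0.96, adjusted p = 0.00661). Erg and Lyl1, factors of stem and progenitor cells, fell, at 12.4 to 23.2 against 26.1 to 43.4 FPKM (log2 difference -1.09, adjusted p = 0.00117) and 68.4 to 85.9 against 110 to 143 FPKM (log2 difference -0.67, adjusted p = 9.66e-07). Within the prefixes 11, 26 and R that both groups share in their sample names, the list medians were 1.53, 1.16 and 0.28.

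Cytokine receptors moved both ways: of the 24 genes tested of 25 listed, 13 rose, 4 fell and 7 did not pass, with a median of 0.42, against 26.5% of all rows higher and 28.5% lower. With equal FPKM sums 11 rose and 7 fell, with a median of 0.20. Besides Flt3, the receptors that rose most clearly were Csf1r, Il10ra and Il6st. Csf1r was at 83.6, 140.4, 56.0 and 88.2 FPKM in Kit+Sca1+ and 9.93, 8.34, 13.6, 10.6 and 8.98 in Kit+Sca1- (log2 difference 2.98 ± 0.24 (SE), adjusted p = 7.40e-10). Il10ra, the receptor for interleukin 10, was at 46.6, 68.1, 78.1 and 79.9 FPKM in Kit+Sca1+ and 3.68, 2.48, 5.62, 4.72 and 13.9 in Kit+Sca1- (log2 difference 3.45 ± 0.32 (SE), adjusted p = 6.20e-09). Both were apart in every library. Il6st, the shared signalling chain gp130, was at 11.6 to 17.8 against 2.92 to 5.03 FPKM (log2 difference 1.63, adjusted p = 5.02e-10), and Il2rb at 5.74 to 15.2 against 1.58 to 4.23 FPKM (log2 difference 1.64, adjusted p = 5.09e-06). The receptors for granulocyte growth factors were lower. Csf3r, the G-CSF receptor, was at 11.8, 16.6, 31.5 and 37.2 FPKM in Kit+Sca1+ and 65.7, 103, 76.4, 71.8 and 107 in Kit+Sca1- (log2 difference -1.87 ± 0.32 (SE), adjusted p = 3.99e-05), with no overlap. Csf2rb, the chain shared by the receptors for GM-CSF, interleukin 3 and interleukin 5, was at 41.7 to 51.9 against 60.4 to 80.1 FPKM (log2 difference -0.65, adjusted p = 3.04e-06).

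Among targets and feedback regulators of RAS and ERK signalling more genes rose than fell. Of the 26 genes tested of 28 listed, 19 rose, 3 fell and 4 did not pass, against 26.5% of all rows higher and 28.5% lower, with a median of 0.78 (0.51 with quantile normalization). The list's mean log2(FPKM + 1) ran from 3.08 to 3.62 in Kit+Sca1+ and 2.41 to 2.96 in Kit+Sca1-, and was higher in MacHigh (3.74 to 4.23), while MacLowKit-Sca1- (3.35 to 3.82) overlapped Kit+Sca1+. Markers of dendritic cells and of red pulp macrophages moved with the list (medians 3.70 and 3.59), and their part in the result was not tested. Dusp5, a nuclear ERK phosphatase, was at 9.52, 7.32, 6.17 and 6.08 FPKM in Kit+Sca1+ and 1.35, 0.820, 1.60, 1.02 and 1.46 in Kit+Sca1- (log2 difference 1.87 ± 0.18 (SE), adjusted p = 1.09e-08). Rasgrp1, an activator of RAS, was at 3.61, 4.36, 1.75 and 1.91 FPKM in Kit+Sca1+ and 0.224, 0.0536, 0.265, 0.342 and 0.259 in Kit+Sca1- (log2 difference 1.61, adjusted p = 7.61e-08). The groups were apart in both. Dusp6, the cytoplasmic ERK phosphatase often read as a measure of ERK output, was at 44.5, 50.6, 46.4 and 46.4 FPKM in Kit+Sca1+ and 31.0, 43.2, 28.6, 29.9 and 42.8 in Kit+Sca1- and did not pass (log2 difference 0.43, adjusted p = 0.0725). Without replicate 2 or replicate 5 of Kit+Sca1- it passed (adjusted p = 0.0465 and 0.0464). Spry2, an inhibitor of receptor signalling, was at 4.16, 3.77, 4.97 and 7.23 FPKM in Kit+Sca1+ and 13.6, 11.6, 14.2, 12.2 and 9.93 in Kit+Sca1- and fell (log2 difference -1.16, adjusted p = 2.32e-06). Plaur, the urokinase receptor, was at 10.8 to 18.2 against 29.6 to 123 FPKM and fell too (log2 difference -2.12, adjusted p = 4.30e-07). Nras itself was listed at 0.001 FPKM in all 24 libraries, so the oncogene could not be checked in this table.

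Immediate early genes, which respond within minutes to growth signals and to handling of cells, were higher, with a wide spread between libraries. Of the 22 genes listed, all tested, 14 rose, 2 fell and 6 did not pass, with a median of 1.44; 9 rose when replicate 4 of Kit+Sca1+ was left out, and 4 fell with equal FPKM sums. The same dendritic cell and macrophage markers moved with this list, and their part was not tested. Jund was at 52.9, 59.5, 50.2 and 66.5 FPKM in Kit+Sca1+ and 12.8, 5.93, 11.0, 9.81 and 21.0 in Kit+Sca1- (log2 difference 2.24 ± 0.25 (SE), adjusted p = 1.00e-07), and Ier5 at 74.7, 70.7, 78.7 and 133 FPKM in Kit+Sca1+ and 14.2, 10.8, 9.79, 10.2 and 28.8 in Kit+Sca1- (log2 difference 2.59, adjusted p = 6.52e-08). These 2 genes were apart in every library. Fos was at 112, 46.4, 23.4 and 161 FPKM in Kit+Sca1+ and 27.1, 6.03, 28.9, 14.3 and 40.7 in Kit+Sca1- and overlapped (log2 difference 1.72 ± 0.69 (SE), adjusted p = 0.0408). Jun was at 71.4, 27.4, 15.7 and 66.6 FPKM in Kit+Sca1+ and 18.8, 1.56, 11.9, 7.27 and 24.3 in Kit+Sca1- and overlapped too (log2 difference 1.88, adjusted p = 0.0088). In Fos and Jun, the libraries of prefix 26 (replicate 3 of Kit+Sca1+ and replicate 2 of Kit+Sca1-) were the lowest of their groups. The call of Fos ended without replicate 1 or 4 of Kit+Sca1+ (adjusted p = 0.113 and 0.149) and without replicate 2 or 4 of Kit+Sca1- (0.12 and 0.0745). Dusp1, at 11.9 to 307 against 2.30 to 43.9 FPKM (log2 difference 2.77, adjusted p = 0.0151), lost its call without replicate 4 of Kit+Sca1+ (2.15, adjusted p = 0.0714). Atf3 and Zfp36l1 rose by 2.37 and 2.92, and Gadd45b fell (9.10 to 17.3 against 23.7 to 39.7 FPKM, log2 difference -1.19, adjusted p = 5.19e-06).

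Inflammatory mediators rose: of the 24 genes tested of 28 listed, 17 rose, 1 fell and 6 did not pass, with a median of 1.15. Cd86, a costimulatory ligand of antigen-presenting cells, was at 49.4, 78.5, 89.7 and 84.2 FPKM in Kit+Sca1+ and 1.76, 1.18, 3.67, 3.43 and 8.89 in Kit+Sca1- (log2 difference 4.17 ± 0.30 (SE), adjusted p = 1.64e-10). Cxcl16, a chemokine of macrophages and dendritic cells, was at 16.6, 25.9, 21.8 and 28.5 FPKM in Kit+Sca1+ and 0.971, 0.438, 1.41, 1.28 and 2.75 in Kit+Sca1- (log2 difference 3.40, adjusted p = 1.75e-10). Both were apart in every library, as was the inflammasome sensor Nlrp3 (10.6 to 15.4 against 1.12 to 4.25 FPKM, log2 difference 2.25, adjusted p = 3.60e-10). Il1a was at 2.21 to 4.95 against 0.001 to 0.139 FPKM (log2 difference 2.005, adjusted p = 5.57e-10). Il1rn, the antagonist of interleukin 1, was the member that fell (0.535 to 1.46 against 2.20 to 10.7 FPKM, log2 difference -1.54, adjusted p = 6.17e-04). Without replicate 1 of Kit+Sca1+ or with equal FPKM sums, 3 members fell, and 2 fell with prefixes as a block, with quantile normalization or without replicate 2, 3 or 5 of Kit+Sca1-. Sums of the dendritic cell markers (2375 to 4508 FPKM in Kit+Sca1+ and 559 to 1128 in Kit+Sca1-) and of the red pulp macrophage markers (1178 to 2669 FPKM in Kit+Sca1+ and 214 to 332 in Kit+Sca1-) moved with these mediators, and their part in the result was not tested.

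Granulocyte genes were lower in Kit+Sca1+, at 2 stages. Of 20 genes listed for primary granules and myeloblasts, 14 were tested and 4 were missing in Kit+Sca1-; of the tested, 1 rose, 11 fell and 2 did not pass, with a median of -1.60. Ctsg, the serine protease cathepsin G, was at 437, 342, 609.5 and 1028 FPKM in Kit+Sca1+ and 1435, 1345, 2483, 1829 and 829 in Kit+Sca1- (log2 difference -1.42 ± 0.29 (SE), adjusted p = 2.07e-04). Replicate 4 of Kit+Sca1+ overlapped replicate 5 of Kit+Sca1-, both of prefix R. Ms4a3, a membrane protein of granulocyte and monocyte progenitors, was at 212, 155, 369.5 and 576 FPKM in Kit+Sca1+ and 1095, 894, 1261, 1266 and 730 in Kit+Sca1- (log2 difference -1.82 ± 0.34 (SE), adjusted p = 8.42e-05). Serpinb1a, an inhibitor of the granule proteases, was at 138, 135, 230.2 and 236 FPKM in Kit+Sca1+ and 686, 696, 628, 824 and 679.5 in Kit+Sca1- (log2 difference -1.97, adjusted p = 1.92e-07), with no overlap. Mgst1, Mgst2 and Igfbp4 fell by 2.05, 2.12 and 1.52 on the log2 scale. Mpo and Elane, missing in Kit+Sca1-, were at 1255, 943, 2462 and 3927 and at 897, 716, 2356 and 3769 FPKM in the 4 Kit+Sca1+ libraries.

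Of 26 genes of neutrophil maturation, 19 were tested and 4 were missing; of the tested, 0 rose, 16 fell and 3 did not pass, with a median of -2.15 (-2.35 to -1.94 with 1 library left out). Camp, the cathelicidin of secondary granules, was at 1039, 1679, 3474 and 1477 FPKM in Kit+Sca1+ and 11450, 17500, 4279, 9792 and 25380 in Kit+Sca1- (log2 difference -2.75 ± 0.50 (SE), adjusted p = 7.07e-05). Cxcr2, the chemokine receptor that draws neutrophils out of the marrow, was at 3.14, 3.29, 4.96 and 2.49 FPKM in Kit+Sca1+ and 19.6, 21.4, 7.92, 18.5 and 33.0 in Kit+Sca1- (log2 difference -2.15 ± 0.29 (SE), adjusted p = 1.35e-06). Ltb4r1, the receptor for leukotriene B, was at 27.0, 33.7, 61.9 and 60.5 FPKM in Kit+Sca1+ and 208, 211, 135, 165 and 288 in Kit+Sca1- (log2 difference -2.15, adjusted p = 9.01e-07). None of the 3 overlapped. Replicate 3 of Kit+Sca1- held the lowest value of its group in all 3 genes and replicate 5 the highest. S100a8, missing in Kit+Sca1-, was at 6286, 7786, 19400 and 10740 FPKM in Kit+Sca1+, so neutrophil transcripts were abundant there too. Members other than the 4 missing summed to 1757 to 5823 FPKM in Kit+Sca1+ and 7487 to 42770 in Kit+Sca1-.

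Genes of DNA replication fell together by a small amount. Of the 37 genes listed, all tested, 0 rose, 34 fell and 3 did not pass, with a median of -0.65. Of the 34, 32 had no overlap, where 28.5% of all rows were lower and 19.5% lower without overlap. The E2F factors switch such genes on at the start of S phase. The letters TTTGGCGC or TTTCCCGC, on either strand, were in 10 of 29 windows of 28 of the genes (34.5%) and in 1.56% of all windows. Cdc6 (chr11:98907988-98908035, plus strand), Gins3 (chr8:95633493-95633540, plus strand) and Mcm5 (chr8:75109335-75109382, plus strand) are shown as members that fell, with the match in capitals, 5′ to 3′ on the strand of the gene (RefSeq, GRCm38.p6).
Cdc6: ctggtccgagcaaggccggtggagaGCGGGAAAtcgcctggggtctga
Gins3: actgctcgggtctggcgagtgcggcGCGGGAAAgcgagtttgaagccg
Mcm5: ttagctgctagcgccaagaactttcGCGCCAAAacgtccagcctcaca
Cdc6, which loads the helicase at origins, was at 7.96, 8.96, 10.3 and 9.33 FPKM in Kit+Sca1+ and 16.1, 23.6, 22.7, 19.0 and 20.7 in Kit+Sca1- (log2 difference -1.07 ± 0.13 (SE), adjusted p = 5.24e-07). Gins3, part of the moving helicase, was at 8.33, 7.23, 9.40 and 8.70 FPKM in Kit+Sca1+ and 14.0, 21.5, 17.9, 15.8 and 17.0 in Kit+Sca1- (log2 difference -0.95 ± 0.12 (SE), adjusted p = 9.42e-07). Mcm5, a helicase subunit, was at 115, 116, 111 and 124 FPKM in Kit+Sca1+ and 175, 217, 243, 177 and 209.9 in Kit+Sca1- (log2 difference -0.80, adjusted p = 9.97e-06). The groups were apart in these 3 genes. Cdc45, Ccne2 and Rrm2 had the lowest values of the list with -1.22, -1.32 and -1.15, and Pcna was at -0.67. The list median was -0.86 with equal FPKM sums and -0.58 with quantile normalization.

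Mitotic genes fell by a like amount. Of the 29 genes listed, all tested, 0 rose, 28 fell and 1 did not pass, with a median of -0.64, and 24 of the 28 had no overlap. Many mitotic genes carry a cell cycle homology region near the start site. The letters TTTGAA or TTCGAA, on either strand, were in 21 of 26 windows of 25 of the genes (80.8%) and in 19.2% of all windows. Ccnb2 (chr9:70421701-70421746, minus strand), Mki67 (chr7:135716457-135716502, minus strand) and Bub1b (chr2:118597998-118598043, plus strand) are shown with their matches in capitals, 5′ to 3′ on the strand of the gene (RefSeq, GRCm38.p6).
Ccnb2: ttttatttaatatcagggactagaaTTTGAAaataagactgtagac
Mki67: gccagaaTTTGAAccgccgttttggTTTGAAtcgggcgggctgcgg
Bub1b: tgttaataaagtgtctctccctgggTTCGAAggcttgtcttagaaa
Ccnb2, cyclin B2, was at 78.5, 60.9, 64.2 and 75.1 FPKM in Kit+Sca1+ and 144, 141, 119.8, 136 and 146 in Kit+Sca1- (log2 difference -0.98 ± 0.15 (SE), adjusted p = 8.46e-06). Mki67, the proliferation antigen, was at 95.9, 75.7, 89.4 and 85.6 FPKM in Kit+Sca1+ and 156, 254, 140.1, 157 and 196 in Kit+Sca1- (log2 difference -1.02 ± 0.16 (SE), adjusted p = 1.18e-05). Bub1b, of the spindle checkpoint, was at 45.9 to 56.9 against 69.9 to 86.9 FPKM (log2 difference -0.56, adjusted p = 2.85e-04). Each of the 3 was apart in every library. Bub1 and Cdca8 fell by 0.66 and 0.70 on the log2 scale.

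Of 20 D cyclins, CDK inhibitors and related genes 7 rose and 6 fell, against 26.5% of all rows higher and 28.5% lower, so the list as a whole was near the share of all rows. Ccnd1, cyclin D1, was at 105, 113, 104 and 72.0 FPKM in Kit+Sca1+ and 19.7, 13.4, 24.3, 22.3 and 30.1 in Kit+Sca1- (log2 difference 2.14 ± 0.24 (SE), adjusted p = 1.06e-07). Ccnd3, cyclin D3, was at 57.8, 84.5, 135 and 106 FPKM in Kit+Sca1+ and 184, 341, 179, 201 and 387 in Kit+Sca1- (log2 difference -1.41 ± 0.22 (SE), adjusted p = 1.08e-05). The 2 cyclins thus went in opposite directions, each without overlap. Cdkn1a, the inhibitor p21, was at 24.9 to 34.2 against 11.4 to 14.99 FPKM (log2 difference 1.08, adjusted p = 6.89e-06), and Btg2, an antiproliferative factor, at 50.5 to 95.4 against 11.1 to 30.9 FPKM (log2 difference 2.05, adjusted p = 2.14e-06). E2f1, E2f2 and Rbl1 fell by 0.89, 1.69 and 0.79 on the log2 scale.

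Myc targets and genes of ribosome biogenesis changed little: of the 30 genes listed, all tested, 6 rose, 0 fell and 24 did not pass, with a median of 0.20. Myc itself was at 128, 87.3, 61.8 and 77.0 FPKM in Kit+Sca1+ and 93.7, 49.6, 96.9, 87.0 and 50.8 in Kit+Sca1- (log2 difference 0.23, adjusted p = 0.409). Polr1a, the large subunit of RNA polymerase I, was at 30.2, 32.0, 29.7 and 28.4 FPKM in Kit+Sca1+ and 14.7, 13.1, 17.9, 17.3 and 13.6 in Kit+Sca1- and rose (log2 difference 0.94 ± 0.13 (SE), adjusted p = 2.26e-06). Polr1e, another subunit, and the ribosome assembly factors Ppan and Nop2 rose by 0.36, 0.53 and 0.42, and none of these 3 kept its call with equal FPKM sums (adjusted p = 0.307, 0.167 and 0.345). Nop2 also lost it without replicate 1 or 2 of Kit+Sca1+ (0.086 and 0.0588) and without replicate 2 or 5 of Kit+Sca1- (0.0673 and 0.0669), and Polr1e with quantile normalization (0.136). The count rested on the scaling and on single libraries. With equal FPKM sums 1 member rose and 1 fell, with prefixes as a block 13 rose, and 3 to 10 rose with 1 library left out (3 without replicate 1 or 2 of Kit+Sca1+ or replicate 2 or 5 of Kit+Sca1-, 10 without replicate 3 of Kit+Sca1-).

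Glycolysis genes fell in larger part. Of the 23 genes listed, all tested, 4 rose, 14 fell and 5 did not pass, with a median of -0.81. Of all rows 26.5% were higher and 28.5% lower. Gpi1, the isomerase of glucose phosphate, was at 142, 146, 194 and 199 FPKM in Kit+Sca1+ and 359, 414, 357, 376 and 356 in Kit+Sca1- (log2 difference -1.14 ± 0.10 (SE), adjusted p = 4.24e-09). Pkm, pyruvate kinase, was at 204, 221, 242 and 237 FPKM in Kit+Sca1+ and 464, 575, 465, 492 and 475 in Kit+Sca1- (log2 difference -1.12 ± 0.12 (SE), adjusted p = 8.70e-08). Both were apart in every library. Aldoa and the lactate exporter Slc16a3 fell by 0.80 and 1.69 on the log2 scale. Ldha was at 268 to 339 against 239 to 322 FPKM (log2 difference 0.098, adjusted p = 0.559), with -0.12 at equal FPKM sums, and Gapdh, Pgk1 and Eno1 have near copies in the genome, so their rows are uncertain. Oxidative phosphorylation genes changed less: of the 31 genes tested of 32 listed, 1 rose, 7 fell and 23 did not pass, with a median of -0.11; with equal FPKM sums 18 fell and the median was -0.33, and with quantile normalization 4 rose. With prefixes as a block or without replicate 3 of Kit+Sca1- 3 rose. Ndufb3 (complex I), Cox7a2 (complex IV) and Uqcrc1 (complex III) fell by 0.79, 0.45 and 0.40 on the log2 scale, and Sdhb (complex II) rose (log2 difference 0.50, adjusted p = 3.15e-05).

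Lysosome and phagocytosis genes moved both ways: of the 30 genes tested of 31 listed, 15 rose, 8 fell and 7 did not pass, with a median of 0.31, against 26.5% of all rows higher and 28.5% lower. At equal FPKM sums 12 rose and 9 fell, with a median of 0.095. Ctss, cathepsin S, which trims the invariant chain, was at 315, 406, 293 and 331 FPKM in Kit+Sca1+ and 26.9, 12.5, 29.5, 35.0 and 67.9 in Kit+Sca1- (log2 difference 3.44 ± 0.28 (SE), adjusted p = 7.52e-10). Cd63, a tetraspanin of lysosomes and primary granules, was at 13.6, 12.1, 26.4 and 35.8 FPKM in Kit+Sca1+ and 77.2, 93.3, 84.5, 72.8 and 88.4 in Kit+Sca1- (log2 difference -2.001 ± 0.26 (SE), adjusted p = 9.29e-07), and the sialidase Neu1 was at 18.3 to 39.0 against 57.2 to 86.2 FPKM (log2 difference -1.32, adjusted p = 5.25e-06). Ctss and Cd63 thus went in opposite directions, each without overlap. Genes of macrophages and dendritic cells moved with Ctss and granulocyte genes with Cd63, and their part in these results was not tested.

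Adhesion and homing genes rose in larger part: of the 27 genes tested of 28 listed, 15 rose, 5 fell and 7 did not pass, with a median of 1.07. The number that fell was 3 without replicate 4 of Kit+Sca1+ and 7 with equal FPKM sums or with prefixes as a block. Itgae was at 39.5, 56.8, 47.1 and 36.1 FPKM in Kit+Sca1+ and 0.816, 0.363, 1.27, 1.24 and 0.911 in Kit+Sca1- (log2 difference 4.58 ± 0.20 (SE), adjusted p = 1.39e-13), and Cadm1, an adhesion molecule of cross-presenting dendritic cells, at 36.8 to 62.3 against 0.330 to 2.68 FPKM (log2 difference 4.46, adjusted p = 1.58e-11). Cxcr3, a chemokine receptor of lymphocytes and dendritic cells, was at 27.4, 48.1, 46.0 and 45.5 FPKM in Kit+Sca1+ and 0.953, 1.07, 3.19, 2.25 and 6.01 in Kit+Sca1- (log2 difference 3.67, adjusted p = 3.82e-10). Each of the 3 was apart in every library. Icam1 and Ccr9 rose by 2.59 and 1.82. Cxcr4, the receptor that holds stem and progenitor cells in the marrow, was at 82.1, 88.1, 80.1 and 76.0 FPKM in Kit+Sca1+ and 151, 245, 127, 149.6 and 187 in Kit+Sca1- and fell (log2 difference -1.03 ± 0.22 (SE), adjusted p = 4.67e-04). Dendritic cell and red pulp macrophage markers, which share Itgae, Cadm1 and Vcam1 with this list, moved with it (list medians 3.70 and 3.59), and their part in the result was not tested.

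In the BCL2 family 15 of 17 listed genes were tested. Of these, 9 rose, 2 fell and 4 did not pass, against 26.5% of all rows higher and 28.5% lower. The list median was 0.67, and with equal FPKM sums 4 fell. Bcl2a1a, Bcl2a1b and Bcl2a1d, prosurvival genes of activated myeloid cells, rose by 2.55, 2.54 and 2.92; they are near-identical copies, so reads could be split among them. Mcl1, the prosurvival factor of myeloid and stem cells, was at 191, 175, 204 and 187 FPKM in Kit+Sca1+ and 101, 78.0, 74.0, 88.5 and 127 in Kit+Sca1- (log2 difference 1.03 ± 0.14 (SE), adjusted p = 1.77e-06). Bbc3 (PUMA), which promotes cell death, rose as well (10.8 to 15.8 against 1.91 to 4.74 FPKM, log2 difference 1.78, adjusted p = 9.00e-08), so members of opposite function moved the same way.

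Polycomb, MLL complex and DNA methylation genes split: of the 26 genes tested of 28 listed, 5 rose, 11 fell and 10 did not pass, against 26.5% of all rows higher and 28.5% lower, with a median of -0.20 (-0.41 with equal FPKM sums). Cbx2, a chromodomain subunit of polycomb complex PRC1, was at 7.89, 6.32, 3.58 and 3.68 FPKM in Kit+Sca1+ and 0.852, 0.594, 0.902, 1.06 and 1.20 in Kit+Sca1- (log2 difference 1.68 ± 0.17 (SE), adjusted p = 1.70e-08), without overlap. Dnmt1 and its partner Uhrf1, which copy DNA methylation behind the replication fork, fell by 0.73 and 0.93 on the log2 scale, and Dnmt3a, which sets new methylation, rose (13.1 to 18.6 against 7.34 to 9.83 FPKM, log2 difference 0.81, adjusted p = 4.73e-05). Ezh2, the polycomb methyltransferase, was at 54.5 to 79.9 against 66.8 to 76.7 FPKM (log2 difference -0.20, adjusted p = 0.18); without replicate 1 of Kit+Sca1+ it was lower (-0.31, adjusted p = 0.0434), and so it was with equal FPKM sums (-0.42, 0.0288). The replication genes, with sums of 1570 to 1764 FPKM in Kit+Sca1+ and 2414 to 3044 in Kit+Sca1-, moved with Dnmt1 and Uhrf1, and their part in the result was not tested.

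In the Wnt, Notch and TGF-beta pathways 19 of 25 listed genes were tested, of which 10 rose, 3 fell and 6 did not pass. Of all rows 26.5% were higher and 28.5% lower. Tcf7l2, a Wnt factor, was at 5.74, 8.82, 5.65 and 7.27 FPKM in Kit+Sca1+ and 0.542, 0.276, 0.410, 0.531 and 0.548 in Kit+Sca1- (log2 difference 2.41 ± 0.13 (SE), adjusted p = 4.20e-12). Notch2 was at 39.8 to 52.0 against 11.2 to 20.8 FPKM (log2 difference 1.61, adjusted p = 7.46e-09), and Notch1 at 9.73 to 14.7 against 13.8 to 26.8 FPKM (log2 difference -0.65, adjusted p = 0.00511). The 2 receptors went in opposite directions, Notch2 without overlap and Notch1 with overlap. Hes1, a Notch target, was near 0 in Kit+Sca1- (1.59 to 2.84 against 0.001 to 0.138 FPKM, log2 difference 1.60, adjusted p = 3.41e-09). Tgfbr2 rose by 1.29, and Id1, a target of BMP signals, fell by 1.84 on the log2 scale.

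Markers of other blood cells were counted because a gate on Sca-1 could also take them. Sca-1 is carried by plasmacytoid dendritic cells, lymphocytes and natural killer cells as well. A marker seen in Kit+Sca1+ alone could pass the filter through that group, so the marker counts here and below lean to higher values. For plasmacytoid dendritic cells 12 of 14 genes were tested. Of these, 8 rose, 3 fell and 1 did not pass, against 26.5% of all rows higher and 28.5% lower. The defining gene Siglech did not pass the filter. Bst2, Irf7 and Tcf4 rose by 1.45, 3.03 and 1.57, while Lair1 and Smim5 fell by 0.89 and 1.72. Members summed to 182 to 264 FPKM in Kit+Sca1+ and 110.1 to 158 in Kit+Sca1-.

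For natural killer cells 12 of 15 genes were tested. Of these, 10 rose, 1 fell and 1 did not pass, against 26.5% of all rows higher and 28.5% lower. Klrk1, an activating receptor, was at 13.6, 15.9, 11.7 and 12.2 FPKM in Kit+Sca1+ and 1.26, 0.511, 1.41, 1.66 and 3.20 in Kit+Sca1- (log2 difference 2.53, adjusted p = 2.31e-09). Ncr1, a defining receptor, was at 3.87, 5.42, 11.0 and 3.18 FPKM in Kit+Sca1+ and 0.647, 1.24, 2.52, 2.37 and 2.23 in Kit+Sca1- (log2 difference 1.23, adjusted p = 0.00357). Gzmb and Prf1, the cytotoxic granule genes, rose by 2.36 and 1.84, and both were lowest in replicate 4 of Kit+Sca1+ and without overlap. Gzma was at 8.12, 14.9, 41.2 and 3.89 FPKM in Kit+Sca1+ and 1.65, 3.07, 5.84, 4.29 and 4.97 in Kit+Sca1- (log2 difference 1.48, adjusted p = 0.0171); without replicate 3 of Kit+Sca1+ its log2 difference was 0.92 (adjusted p = 0.11). Klrb1c, the receptor NK1.1, was at 0.261 to 0.898 against 0.190 to 0.599 FPKM and did not pass (log2 difference 0.28, adjusted p = 0.156), except without replicate 4 of Kit+Sca1+ (adjusted p = 0.0478). The list summed to 148 to 307 FPKM in Kit+Sca1+ and 276 to 520.5 in Kit+Sca1-, most of it from Nkg7, a granule gene found in myeloid progenitors too, which fell (70.5 to 259.5 against 247 to 498 FPKM, log2 difference -1.35, adjusted p = 0.00412).

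Of 20 T cell genes 11 were tested. Of the tested, 7 rose, 1 fell and 3 did not pass, against 26.5% of all rows higher and 28.5% lower. These shares also stand against the B cell and plasma cell counts below, and the lean of the filter to higher values applies to all 3 lists. The number of T cell genes that fell was 2 with equal FPKM sums, with quantile normalization or without replicate 3 of Kit+Sca1-. Cd3e, Cd3g and Cd8b1 did not pass the filter. The T cell receptor gene Cd3d was at 1.22, 1.73, 3.24 and 0.5002 FPKM in Kit+Sca1+ and 8.64, 12.7, 3.02, 7.67 and 22.4 in Kit+Sca1- and fell (log2 difference -2.03, adjusted p = 2.95e-04). Cd8a, which cross-presenting dendritic cells of the spleen carry too, was at 11.4, 30.6, 37.6 and 29.8 FPKM in Kit+Sca1+ and 0.299, 0.291, 0.774, 0.734 and 1.83 in Kit+Sca1- (log2 difference 3.94 ± 0.28 (SE), adjusted p = 1.11e-10). Cd3d, part of the T cell receptor complex, thus went against the other genes named here. The kinase Lck and the factor Tcf7 rose by 1.72 and 1.46. The list summed to 49.8 to 76.8 FPKM in Kit+Sca1+ and 14.4 to 38.3 in Kit+Sca1-. Of 15 B cell genes 5 were tested; Cd79a and Pax5 did not pass the filter, and 2 rose, Fcrla (7.80 to 13.5 against 0.135 to 1.502 FPKM, log2 difference 2.74, adjusted p = 1.16e-10) and Ms4a1 (0.560 to 2.13 against 0.001 to 0.262 FPKM, log2 difference 1.13, adjusted p = 4.42e-06). Cd79b was at 14.1 to 29.8 against 17.6 to 28.3 FPKM (log2 difference -0.073, adjusted p = 0.702), and the list summed to 35.5 to 42.0 FPKM in Kit+Sca1+ and 20.9 to 32.6 in Kit+Sca1-. Without replicate 5 of Kit+Sca1-, 4 of the B cell genes rose. Of 4 plasma cell genes tested of 8, 1 rose, 1 fell and 2 did not pass; 2 rose with prefixes as a block or without replicate 3 of Kit+Sca1-. The secretory factors Xbp1 and Derl3 were at 85.5 to 125 against 143 to 177 FPKM (log2 difference -0.57, adjusted p = 4.09e-04) and 0.842 to 1.55 against 0.360 to 1.47 FPKM (log2 difference 0.30, adjusted p = 0.134); Derl3 passed with prefixes as a block (0.31, adjusted p = 0.0439) and without replicate 3 of Kit+Sca1- (0.42, 0.0276).

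Of 18 erythroid genes tested, 5 rose, 0 fell and 13 did not pass, against 26.5% of all rows higher and 28.5% lower. The share that rose was thus near that of all rows. The number that fell was 1 without replicate 1 of Kit+Sca1+. Hbb-b1, a beta-globin gene, was at 47.5, 50.01, 36.8 and 15.1 FPKM in Kit+Sca1+ and 2.66, 2.88, 0.623, 10.9 and 1.43 in Kit+Sca1- (log2 difference 3.25, adjusted p = 7.51e-04). Hba-a1 and Hba-a2, near-identical alpha-globin genes whose reads could be split, did not move alike: Hba-a1 rose by 2.33 with overlap (7.87 to 32.9 against 0.252 to 9.40 FPKM), and Hba-a2 was above 1 FPKM in replicate 3 of Kit+Sca1+ alone, at 16.9. Epor, the erythropoietin receptor, was at 1.77 to 4.05 against 0.0192 to 0.671 FPKM (log2 difference 1.51, adjusted p = 2.30e-04), and Tfrc, the transferrin receptor, at 37.8 to 82.7 against 50.1 to 95.0 FPKM (log2 difference -0.48, adjusted p = 0.185); without replicate 1 of Kit+Sca1+ Tfrc was lower (-0.74, adjusted p = 0.0479). The list summed to 76.3 to 167 FPKM in Kit+Sca1+ and 57.3 to 116 in Kit+Sca1-. Of 12 megakaryocyte genes tested, 3 rose, 4 fell and 5 did not pass, near the share of all rows (26.5% higher and 28.5% lower). Nfe2 fell (38.7 to 56.1 against 124 to 176 FPKM, log2 difference -1.56, adjusted p = 6.42e-09), Vwf rose (2.60 to 3.70 against 0.145 to 0.547 FPKM, log2 difference 1.61, adjusted p = 2.94e-08), and Pf4, the platelet chemokine, was at 1.14 to 14.9 against 0.121 to 3.78 FPKM (log2 difference 1.62, adjusted p = 0.0154; without replicate 4 of Kit+Sca1+ 1.16, adjusted p = 0.0855). Itga2b and Gp1ba, defining platelet receptor chains, were at 0.437 to 1.23 against 0.162 to 0.910 FPKM and 0.403 to 0.674 against 0.283 to 1.08 FPKM and did not pass. Cd9, a tetraspanin of platelets and myeloid cells, was at 74.5 to 118 against 34.3 to 143 FPKM (log2 difference 0.39, adjusted p = 0.236), and it passed without replicate 5 of Kit+Sca1- (0.62, 0.0388).

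Markers of mast cells, basophils and eosinophils were counted too. Of 8 mast cell and basophil genes tested of 13, 2 rose, 2 fell and 4 did not pass, and of 9 eosinophil genes of 10, 2 rose, 1 fell and 6 did not pass, against 26.5% of all rows higher and 28.5% lower. With equal FPKM sums, with quantile normalization or without replicate 1 or 2 of Kit+Sca1+ or replicate 2 or 5 of Kit+Sca1-, 1 of the mast cell and basophil genes rose, and with prefixes as a block 2 of the eosinophil genes fell. Mcpt8, a basophil protease, was at 6.71 to 20.7 against 4.79 to 26.1 FPKM (log2 difference -0.23, adjusted p = 0.645), and Ms4a2, a chain of the IgE receptor, at 0.672 to 1.07 against 2.70 to 4.54 FPKM (log2 difference -1.38, adjusted p = 5.31e-04). Hdc, which makes histamine, fell (7.03 to 41.5 against 34.7 to 105 FPKM, log2 difference -1.86, adjusted p = 4.52e-04). The eosinophil genes Epx and Prg2 were at 4.37 to 10.03 against 5.07 to 20.4 FPKM and 20.7 to 41.7 against 25.9 to 82.5 FPKM and did not pass (adjusted p = 0.207 and 0.156); with prefixes as a block Prg2 fell (log2 difference -1.11, adjusted p = 0.0396). Ear2, an eosinophil and monocyte ribonuclease, rose with overlap (20.7 to 52.2 against 3.87 to 27.1 FPKM, log2 difference 1.57, adjusted p = 0.00106). Siglec5, the row taken for the defining eosinophil gene Siglecf, fell (3.13 to 9.03 against 14.4 to 19.6 FPKM, log2 difference -1.50, adjusted p = 3.44e-06). Ccr3, the eotaxin receptor, was at 10.1, 32.8, 14.2 and 10.3 FPKM in Kit+Sca1+ and 0.113, 0.0855, 0.0707, 0.282 and 0.0143 in Kit+Sca1- and rose (log2 difference 3.85, adjusted p = 5.22e-12). Of 16 endothelial and stromal genes 1 passed the filter, Pecam1, which leukocytes carry too (24.4 to 45.6 against 10.9 to 19.4 FPKM, log2 difference 1.09, adjusted p = 3.13e-05). Of 6 innate lymphoid genes tested of 12, 3 rose, 0 fell and 3 did not pass, with 1 to 5 that rose when 1 library was left out (1 without replicate 1 or 2 of Kit+Sca1+ or replicate 2 of Kit+Sca1-, 5 without replicate 4 of Kit+Sca1+). Id2, which dendritic cells need too, was at 482 to 629.7 against 89.8 to 284 FPKM (log2 difference 1.99, adjusted p = 8.29e-06). Cd7 and Il7r rose by 1.31 and 0.66, and both calls ended without replicate 1 (adjusted p = 0.105 and 0.091) or replicate 2 of Kit+Sca1+ (0.0906 and 0.148) and without replicate 2 of Kit+Sca1- (0.0951 and 0.0652), and that of Il7r also without replicate 3 of Kit+Sca1- (0.0543). Il7r was at 2.12, 3.02, 0.846 and 0.373 FPKM in Kit+Sca1+ and 0.848, 0.153, 0.237, 1.19 and 0.336 in Kit+Sca1-, and without replicate 2 of Kit+Sca1+ its log2 difference was 0.40.

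Set among the 4 sorted groups, Kit+Sca1+ had the highest mean of 2456 of the 11564 rows (21.2%) and Kit+Sca1- of 3667 (31.7%). Kit+Sca1+ had the lowest mean of 2673 rows (23.1%) and Kit+Sca1- of 3293 (28.5%). Of the conventional dendritic cell genes tested, 18 of 21 were highest in Kit+Sca1+, as were 14 of 18 red pulp macrophage genes and 11 of 11 MHC class II genes. The monocyte and macrophage list differed from these: 4 of its 34 genes were highest in Kit+Sca1+, and 26 were lowest in Kit+Sca1-. Replication and mitotic genes were highest in Kit+Sca1- in 30 of 37 and 29 of 29 cases, and lowest in Kit+Sca1+ in 1 and 4. For the mean log2(FPKM + 1) of the dendritic cell list, libraries ran from 5.73 to 6.41 in Kit+Sca1+, 4.17 to 4.70 in MacHigh, 2.50 to 3.43 in MacLowKit-Sca1- and 2.31 to 3.82 in Kit+Sca1-. For neutrophil maturation genes they ran from 3.85 to 4.65, 6.45 to 7.28, 5.70 to 7.15 and 5.00 to 7.02 in the same order. The Kit+Sca1+ libraries lay apart from the other 3 groups in both of these lists. The MHC class II levels of Kit+Sca1+ (7.66 to 8.59) overlapped those of MacHigh (7.15 to 8.06), and its replication levels (5.07 to 5.23) lay between those of MacHigh (4.28 to 4.80) and Kit+Sca1- (5.66 to 5.96). These levels are a description with no test.

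**Figure D4:**
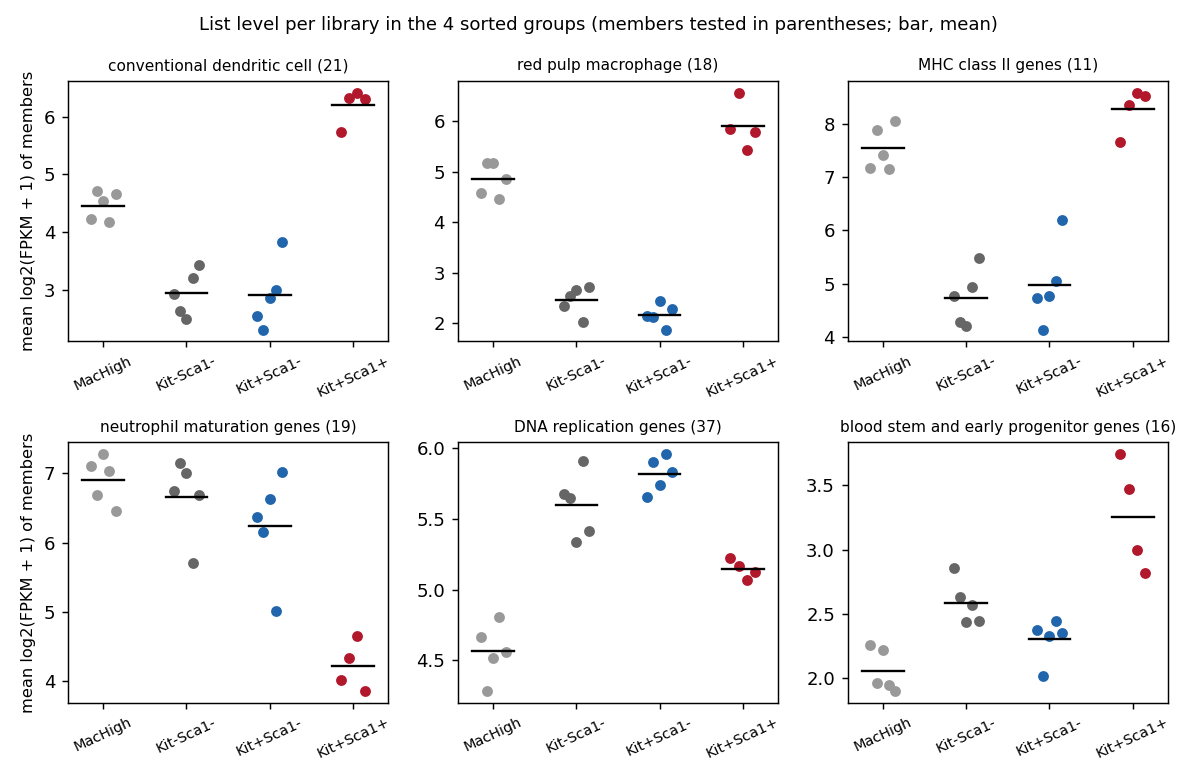
Mean log2(FPKM + 1) of the tested members of 6 lists, 1 point per library in the 4 sorted groups, with a bar at the group mean. Values at the floor of the table are used as deposited. The dendritic cell and red pulp macrophage lists are highest and the neutrophil maturation list lowest in the 4 Kit+Sca1+ libraries. Replication genes are lowest in MacHigh and have their highest group mean in Kit+Sca1-. Their Kit+Sca1- libraries (5.66 to 5.96) overlap those of MacLowKit-Sca1- (5.34 to 5.91).

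Sample names carry prefixes, and 11, 26 and R occur in both groups, so the comparison was also made within each. The median over all rows was -0.013, -0.03 and -0.0082 for prefixes 11, 26 and R. Dendritic cell genes had medians of 3.57, 4.85 and 2.63, MHC class II genes 3.17, 4.75 and 2.48 and red pulp macrophage genes 3.83, 3.12 and 3.18. Replication genes had medians of -0.40, -0.84 and -0.65 and mitotic genes -0.53, -0.996 and -0.59. Each of these lists kept its direction in the 3 prefixes. Primary granule genes had medians of -2.09, -1.19 and -0.17, so the difference was smallest within prefix R. For Ctsg and Ms4a3 the Kit+Sca1+ library of prefix R was the highest of its group and the Kit+Sca1- library the lowest. The stem and progenitor list was smallest within prefix R too. Each prefix holds 1 library a group, so these values have no test.

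**Figure D5:**
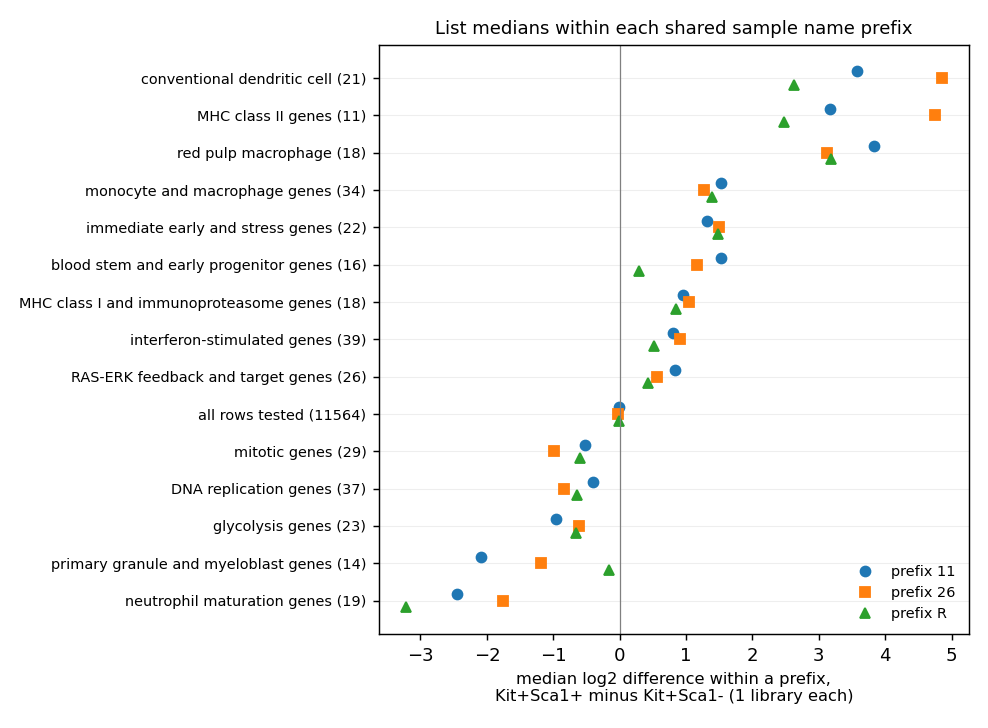
Median log2 difference (Kit+Sca1+ minus Kit+Sca1-) of the members of 14 lists and of all rows tested, within each of the 3 sample name prefixes found in both groups, 1 library per group and prefix. The 3 markers of a list lie on 1 side of 0, and those of all rows lie near 0.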

How the data were processed

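RNA of sorted mouse leukaemia cells from spleen was extracted with RNeasy columns (Qiagen) and sequenced by a standard Illumina RNA-seq protocol, per the labels' protocols. TopHat2 2.0.4, Cuffdiff and the build mm10 are named in the submitters' processing notes, with no roles and no version of Cuffdiff. The authors deposited 1 table of FPKM for 23361 rows and 24 libraries, taken as FPKM from its name, with no counts.

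A row was kept where 4 or more libraries reached 1 FPKM (11599 rows). The 35 rows missing in Kit+Sca1- were left out of the comparison, which left 11564. A gene at 1 FPKM or more in the 4 Kit+Sca1+ libraries alone passed this filter, so counts of low genes lean to higher values. log2(FPKM + 1) was fitted with limma 3.58.1 (R 4.3.3) over all 24 libraries and 5 groups with a variance trend and no block, and p-values were adjusted by Benjamini-Hochberg over all 11564 rows. The marker genes also had an exact two-sided permutation test. Of the row names 23201 (99.3%) matched a RefSeq symbol of GRCm38.p6. Promoter windows were searched in Python 3.11.15.

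Deviations from the group means correlated at 0.137 to 0.231 for the 3 pairs of libraries with the same prefix. Other pairs were at -0.267 to 0.149, so the ranges overlapped. A pairing of libraries by prefix therefore rests on the sample names and is uncertain. Differences, SE and p-values come from the fit with no block unless a block is named.

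The members and lists were chosen with earlier results of these data known. Named genes are the 3 marker genes, the 12 highest and 12 lowest differences (called, without overlap, with the higher group averaging at least 5 FPKM), up to 4 called members of each theme list by the size of the moderated statistic, the defining and the 2 highest members of each cell type list, and the 5 highest missing rows, except some genes that are not reported here. These were chosen after their values were seen: B2m, Bcl2, Bub1b, Ccnd3, Ccr3, Cd207, Cd24a, Cd27, Cd34, Cd63, Cd74, Cdkn1a, Cebpa, Cebpd, Cebpe, Clec9a, Csf2rb, Csf3r, Ctsg, Cxcr3, Cxcr4, Ddx58, Dnmt3a, Dusp1, Dusp6, E2f2, Egfl7, Epor, Erg, Ezh2, Fos, Gadd45b, Gfi1, Gzmb, H2-Aa, H2-Ab1, H2-Eb1, H2-K1, Hoxa10, Hoxa5, Hoxa7, Hoxa9, Icam1, Id1, Ifit2, Il1rn, Il2rb, Irf4, Irgm1, Jun, Lair1, Lck, Ldha, Ly6c2, Lyl1, Lyz2, Mcl1, Mcm5, Mrc1, Ms4a1, Ms4a3, Myb, Myc, Neu1, Notch1, Oas2, Pcna, Prf1, Rrm2, Runx1, Sirpa, Slc40a1, Smim5, Spry2, Trim30a, Vwf and Xcr1; so were the genes named only as missing, below the filter or with near copies. Alternatives covered pseudocounts, filters, scalings, libraries left out, blocks and weights; 2 of them, with shared prefixes alone and with the prefix block at equal sums, were added after seeing the data.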

Additional observations from a re-analysis of the deposited data

Results flagged for a closer look

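In 450 groups of 4 or 5 libraries examined, 1 per named gene and group, 47 had a library far from the others. Its gap to the nearest, as a share of the range, was above Dixon's 95% critical value. Chance gives about 1 in 20 for independent, normally distributed values. These are FPKM of selected genes, many of which move together, so the count cannot show an excess over that rate. The cause of these gaps was not tested.

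Replicate 5 of Kit+Sca1-, of prefix R, stood high in 22 of these, 13 of them genes of conventional dendritic cells or MHC class II. In FPKM these were Batf3 at 21.5 (nearest 6.20), H2-DMb1 at 38.5 (nearest 20.0), Ciita at 18.5 (nearest 7.72), H2-DMb2 at 16.1 (nearest 7.87), Naaa at 171 (nearest 63.8), Itgax at 22.6 (nearest 7.77) and Zbtb46 at 9.73 (nearest 2.82). The others were H2-Aa at 1236 (nearest 466), H2-Ab1 at 741 (nearest 290.1), H2-Eb1 at 228 (nearest 88.6), Cd74 at 2136 (nearest 754), Clec9a at 20.7 (nearest 6.61) and Cd24a at 538 (nearest 373). Each of these values except that of Cd24a lay below every Kit+Sca1+ library, and the Kit+Sca1+ library of the same prefix did not stand high for them. Further genes high in replicate 5 were Axl at 4.196 (nearest 1.75), Il10ra at 13.9 (nearest 5.62), Mpeg1 at 198 (nearest 115), Mx1 at 4.88 (nearest 2.28), Irf7 at 15.4 (nearest 7.27), Btg2 at 30.9 (nearest 16.6), Ier5 at 28.8 (nearest 14.2), Atf3 at 0.799 (nearest 0.299) and Nlrp3 at 4.25 (nearest 1.97).

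Replicate 1 of Kit+Sca1+ stood low for Procr at 7.13 (nearest 15.4), H2-M3 at 31.7 (nearest 39.2), Naaa at 541 (nearest 1065), H2-Ab1 at 2487 (nearest 4474) and Cxcr3 at 27.4 (nearest 45.5). Replicate 3 of Kit+Sca1+ stood high for Ankrd22 at 4.76 (nearest 1.59), Bbc3 at 15.8 (nearest 11.2) and Hba-a2 at 16.9 (nearest 0.0111). Replicate 4 of Kit+Sca1+ stood high for Uqcrc1 at 169.8 (nearest 143) and Ier5 at 133 (nearest 78.7). Replicate 2 of Kit+Sca1+ stood high for Bcl2a1b at 35.9 (nearest 19.2) and Hba-a1 at 32.9 (nearest 9.61). Replicate 1 of Kit+Sca1+ stood high for Tfrc at 82.7 (nearest 42.1). Replicate 4 of Kit+Sca1+ stood low for Il2rb at 5.74 (nearest 13.6).

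Replicate 4 of Kit+Sca1- stood high for Mertk at 0.379 (nearest 0.0918), Hes1 at 0.138 (nearest 0.0357), Hbb-b1 at 10.9 (nearest 2.88) and Epor at 0.671 (nearest 0.161). Replicate 2 of Kit+Sca1- stood high for Bub1 at 44.1 (nearest 35.4) and Pkm at 575 (nearest 492). Replicate 3 of Kit+Sca1- stood high for Uqcrc1 at 242 (nearest 189) and Siglec5 at 19.6 (nearest 15.6). Replicate 2 of Kit+Sca1- stood low for Bcl2 at 5.40 (nearest 7.64). Replicate 3 of Kit+Sca1- stood low for Csf2rb at 60.4 (nearest 76.2). Replicate 4 of Kit+Sca1- stood low for Ezh2 at 66.8 (nearest 74.2).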

How the results depend on the processing

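Over 24 alternatives the 225 named genes gave 5219 values with the same direction and call, 55 without the call, 28 with a call gained and 12 with the other sign, and the cause was not tested. The count of changed rows ranged from 5224 with a filter of 5 FPKM to 7380 with no filter, and from 5676 to 6427 with 1 library left out, always within 1.5 times of 6369. Ly6a and Itgam kept direction and call in every alternative. Kit was called lower with equal FPKM sums (-0.419) and with these and the prefix block (-0.461). Other signs, none of them called, came for Ldha with equal sums (-0.119; -0.0533 with the prefix block) and with quantile normalization for Klrb1c (-0.145), Derl3 (-0.166), Itga2b (-0.224) and Irf4 (-0.232). With 1 library left out, Cd79b ranged from -0.225 to 0.118, Hba-a2 from -0.00116 to 1.38 and Gp1ba from -0.17 to 0.0046. Without replicate 3 of Kit+Sca1+, Cd79b was at 0.118 and Hba-a2 at -0.00116, and without replicate 1 of Kit+Sca1-, Cd79b was at 0.00561 and Gp1ba at 0.0046.

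With the sample name prefix as a replicate block 7280 rows changed, and beyond Derl3, Prg2 and Sirpa no call of a named gene changed. The replicate number of the titles as a block gave 6784, with correlations of -0.134 to 0.219 between same-numbered libraries, so the titles' numbers were not taken as pairs. With the block in the 6 libraries of shared prefixes alone 5601 rows changed, Cd9 was at -0.0179 and Mcpt8 at 0.0116, and 12 named genes, Myb, Ctsg and B2m among them, lost their call with fewer libraries. The prefix block at equal sums gave 7095 rows, 33.6% of them higher. The table holds FPKM alone, so counting error could not be separated from the spread between libraries.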
